A study of Mus musculus with 10 samples.

Results

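The microRNA pathway turns hairpin transcripts into mature microRNAs (miRNAs) and loads them into effector complexes. In the nucleus the RNase III enzyme Drosha and its RNA-binding partner Dgcr8, together called the Microprocessor, release precursor hairpins. Exportin 5 (Xpo5) carries these to the cytoplasm, where Dicer1, aided by Tarbp2 or Prkra, cuts off the loop. One strand then enters an Argonaute protein (Ago1 to Ago4), which represses the messenger RNAs it pairs with, and Ago2 alone of the mammalian Argonautes is known as an efficient slicer. In mice, loss of Dicer1 or Dgcr8 from photoreceptors is known to harm these cells. The genes described here are these 10, out of 24736 symbols in the mRNA table. They were picked by symbol with no rule on their values, though earlier results of these data were known. All 10 were found under their current symbols and all 10 passed the low-count filter, among 18988 genes that did.

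The study sequenced RNA from eyeballs of Kunming mice, an outbred stock. All animals were labelled female and 4 weeks old, and the sample titles carry day 14. The 3 blue-light libraries (blue A, B and C) came from mice kept in the dark with an 18 W blue lamp as light source, and the 2 natural-light libraries (control A and B) from mice in natural light. The same letters name 5 miRNA libraries. Nothing in the labels states that each library is its own animal, and p-values therefore cover spread between libraries that may be technical replicates.

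The mRNA libraries held 93202801 to 102602360 units in the blue group and 87071487 and 107660103 units in the controls, a unit being 1 estimated count in the deposited table. Levels are in CPM, the library's units rescaled to a common total with TMM factors. The miRNA libraries held 8860154 to 10875487 counts in the blue group and 8355432 and 9442889 in the controls. The tissue label was checked against defining markers, and the libraries held RNA of rods (Gnat1), lens (Cryaa), cornea (Krt12) and pigment epithelium (Rpe65). The summed level of 7 rod markers was 2174, 3863 and 3052 CPM in blue A, B and C, against 10150 and 10142 CPM in control A and B, and all 7 passed the test as lower. The 6 gliosis markers summed to 464 to 531 CPM under blue light, against 91.5 and 100.4 CPM in the controls, and all 6 passed as higher. The 6 microglia markers summed to 192 to 278 CPM under blue light, against 71.9 and 111 CPM in the controls, and 0 of them passed. The 6 muscle markers differed within both groups. They summed to 656, 290 and 283 CPM in blue A, B and C, against 263 and 707 CPM in control A and B. The 7 lens markers stood at 23251 to 24333 CPM under blue light, against 25390 and 23249 CPM in the controls. In such whole-eye RNA, fewer cells of a type and less RNA per cell cannot be told apart. The ribosomal precursor Rn45s took 8.69% to 14.4% of units in the blue libraries, against 4.30% in control A and 14.1% in control B.

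0 of the 10 members passed between blue and natural light in the quasi-likelihood test of edgeR, with p-values adjusted over all genes (Benjamini-Hochberg). Adjusted p ran from 0.131 for Ago3 to 0.829 for Ago4. The background was 2.22% of all tested genes passing, 126 higher (0.664%) and 295 lower (1.55%) (124 higher and 150 lower with library totals as the scaling). At an unadjusted p under 0.05 there were 2 members, Ago3 and Dicer1, both with lower levels under blue light, against a background of 9.27% of genes lower and 7.03% higher at that p. This count was 0 with library totals and 0 without control A. DESeq2 called 1 member, Ago3 (adjusted p = 0.0284), where it called 9.03% of all genes (4.61% lower), and limma-voom called 0. The log2 fold change, blue light minus natural light (log2FC), was negative for 7 members and positive for 3, with a median of -0.094, against -0.0056 over all tested genes, of which 51% were negative. Every 95% interval of a member's log2FC lay within -0.60 and 0.47, so each excluded a 2-fold change in either direction in this fit.

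**Figure D1:**
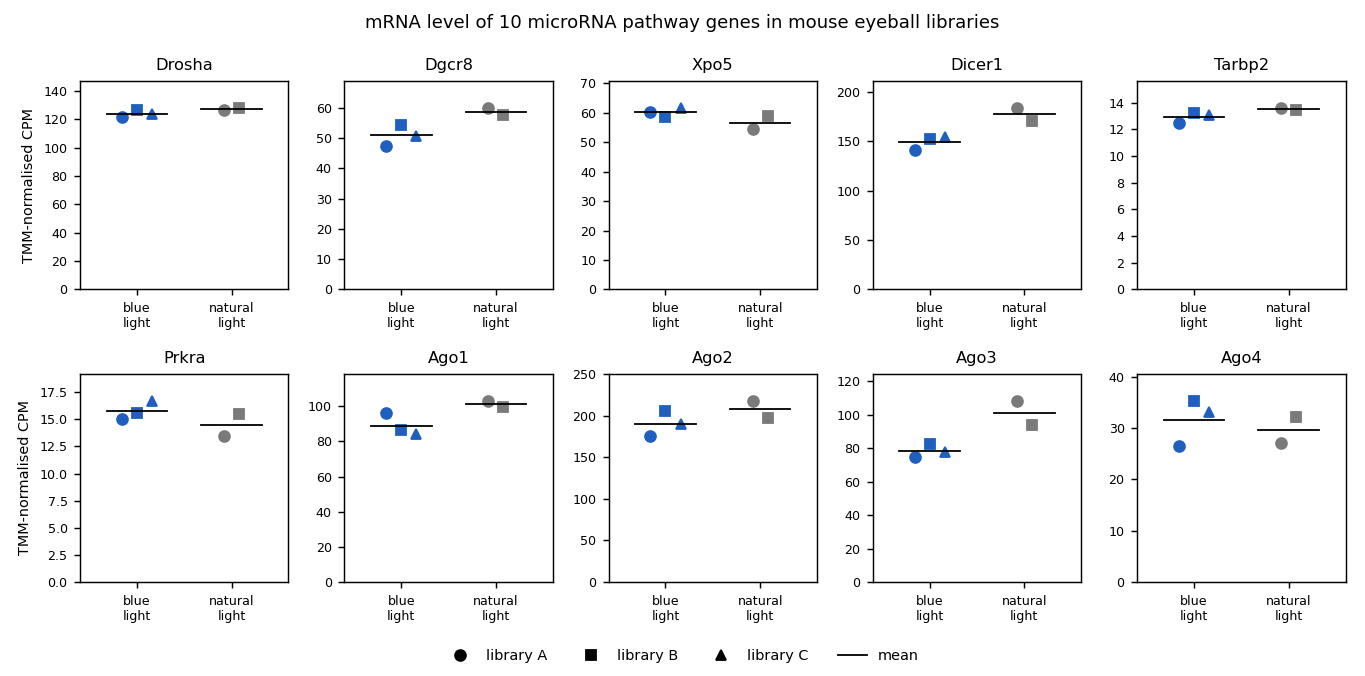
Level of the 10 genes in each library, in TMM-normalised CPM on the vertical axes, which start at 0, with blue-light libraries left of natural-light libraries; symbols mark the library letter and lines the group mean. Ago3 stands at 74.9 to 82.7 CPM under blue light, against 93.9 and 108.4 CPM in natural light, while the Drosha libraries lie between 121 and 128 CPM in both groups.

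Levels were also compared without the test, as whether the groups overlapped. With TMM scaling 6 members had all 3 blue libraries below both controls: Drosha, Dgcr8, Dicer1, Tarbp2, Ago1 and Ago3. The background for this was 20.1% of tested genes lower without overlap, and 15.6% higher without overlap, where 0 members stood. This count depended on the scaling. With DESeq2's size factors 4 members were lower without overlap (background 17.6%) and 1, Xpo5, was higher (background 17.6%). With library totals Ago3 was the 1 member lower without overlap (background 11.8%), and 2, Xpo5 and Prkra, were higher (background 19%). Ago3 was thus the 1 member lower without overlap under all 3 scalings. With library totals its blue B and control B almost touched, at 8884 of 102602360 units against 7600 of 87071487 units. The share of all genes lower without overlap under all 3 scalings was not computed.

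The Microprocessor genes came first in the pathway. Drosha, the nuclease, lies on chromosome 15 from 12824804 to 12935291 (mm10, as are the positions below). Its level was 121, 126 and 124 CPM in blue A, B and C, against 127 and 128 CPM in control A and B. All blue libraries were lower, with blue B almost at the level of control A, and the log2FC was -0.039 (SE 0.064, 95% interval -0.20 to 0.12, adjusted p = 0.823). With library totals as the scaling it was 0.0076. Over the 5 libraries its log2 level had an SD of 0.031, against a median SD of 0.151 for genes with a mean of at least 5 CPM.

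Dgcr8, the hairpin-binding partner, lies on chromosome 16 from 18253948 to 18289251. It stood at 47.5, 54.3 and 50.8 CPM in blue A, B and C, against 59.8 and 57.6 CPM in the controls. All 3 blue libraries were below both controls, and the log2FC was -0.21 (SE 0.084, 95% interval -0.42 to 0.00043, adjusted p = 0.308). Over 825 bases its annotated span overlaps Trmt2a, a tRNA methyltransferase gene with a log2FC of -0.075 (adjusted p = 0.764). With the overlapping genes summed the log2FC was -0.15 (adjusted p = 0.447). The log2 ratio of Dgcr8 to Drosha within a library, which no scaling changes, was -1.35, -1.22 and -1.28 in blue A, B and C, against -1.08 and -1.15 in the controls.

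The Dgcr8 transcript itself carries a hairpin that the Microprocessor is known to cut, and the miRNA miR-1306 comes from it. The hairpin is printed because it ties a mature miRNA in the second assay to a member. RefSeq places it (GRCm38.p6) at chr16:18284239-18284317 on the minus strand, the strand of Dgcr8, and the capitals mark the 5p arm and then the 3p arm.
Mir1306 hairpin: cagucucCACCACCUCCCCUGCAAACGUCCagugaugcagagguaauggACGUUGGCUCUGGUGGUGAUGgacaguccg
The 5p arm was at 54, 80 and 51 counts in blue A, B and C, against 49 and 60 in the controls (log2FC -0.15, SE 0.28, adjusted p = 0.898). The 3p arm was at 48, 24 and 17 counts in blue A, B and C, against 47 and 42 in the controls. After scaling the 3p arm was lower in all 3 blue libraries, at 4.26, 2.23 and 1.80 CPM, against 6.01 and 4.74 CPM in the controls (log2FC -0.94, SE 0.39, unadjusted p = 0.0361, adjusted p = 0.380). Of all tested miRNAs 13.6% were lower without overlap, and 6.55% were lower at an unadjusted p under 0.05. The 3p share of the reads of both arms was 47.1% in blue A (exact 95% interval 37.1% to 57.2%), 23.1% in blue B (15.4% to 32.4%) and 25.0% in blue C (15.3% to 37.0%). In the controls it was 49.0% in A (38.6% to 59.4%) and 41.2% in B (31.5% to 51.4%), so the groups overlapped through blue A. These intervals cover counting error only.

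Exportin 5 (Xpo5), the export receptor, lies on chromosome 17 from 46202811 to 46243598. Its level was 60.3, 58.6 and 61.5 CPM in blue A, B and C, against 54.4 and 58.9 CPM in the controls. Blue B was below control B, and the log2FC was 0.086 (SE 0.075, 95% interval -0.098 to 0.27, adjusted p = 0.645). The log2 ratio of Xpo5 to Drosha was -1.01, -1.11 and -1.01 in the blue libraries, against -1.22 and -1.12 in the controls, with blue B and control B close together.

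Dicer1, the cytoplasmic nuclease, lies on chromosome 12 from 104687740 to 104751968. It stood at 142, 152 and 155 CPM in blue A, B and C, against 184 and 171 CPM in control A and B. The highest blue library was below the lower control, and the mean was 149.5 ± 6.93 CPM under blue light and 177.3 ± 9.04 CPM in natural light (SD, n = 3 and n = 2). The log2FC was -0.25 (SE 0.075, 95% interval -0.43 to -0.060, unadjusted p = 0.0180, adjusted p = 0.193). Without control A it was -0.17, and over all alternatives the adjusted p ran from 0.114 to 0.767. The log2 ratio of Dicer1 to Drosha was 0.22, 0.27 and 0.32 in blue A, B and C, against 0.54 and 0.42 in the controls.

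The 2 double-stranded RNA-binding partners of Dicer1 did not pass. Tarbp2, also called TRBP, lies on chromosome 15 from 102516077 to 102523676 and had 12.5, 13.2 and 13.1 CPM in blue A, B and C, against 13.6 and 13.4 CPM in the controls. Its log2FC was -0.062 (SE 0.098, 95% interval -0.30 to 0.18, adjusted p = 0.819). It overlaps Map3k12, a kinase gene of neurons, over 928 bases. With both summed the log2FC was -0.21 (adjusted p = 0.327), a sum in which Map3k12 holds most of the units. Prkra, also called PACT and a known activator of the kinase PKR, lies on chromosome 2 from 76609215 to 76648220. It had 15.0, 15.5 and 16.7 CPM in blue A, B and C, against 13.5 and 15.5 CPM in the controls, and the groups overlapped (log2FC 0.12, SE 0.11, 95% interval -0.16 to 0.40, adjusted p = 0.675). The log2 ratio of Prkra to Dicer1 was -3.24, -3.29 and -3.21 in the blue libraries, against -3.77 and -3.46 in the controls. For Tarbp2 to Dicer1 it was -3.50, -3.53 and -3.56 in the blue libraries, against -3.76 and -3.67 in the controls.

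Of the Argonaute genes, Ago4, Ago1 and Ago3 lie side by side on chromosome 4, between 126326994 and 126533586, and Ago2 lies on chromosome 15 from 73101625 to 73184947. The log2FC of the neighbours did not share 1 sign. Ago3 had 74.9, 82.7 and 77.5 CPM in blue A, B and C, against 108.4 and 93.9 CPM in control A and B. All blue libraries were below both controls, with a mean of 78.4 ± 3.99 CPM under blue light and 101.1 ± 10.2 CPM in natural light (SD, n = 3 and n = 2). Its log2FC was -0.37 (SE 0.093, 95% interval -0.60 to -0.14, unadjusted p = 0.00768, adjusted p = 0.131). In DESeq2 the log2FC was -0.35 and the adjusted p 0.0284, and over all alternatives the adjusted p ran up to 0.713. The value rested in part on control A, the higher control, since it was -0.24 without control A and -0.47 without control B.

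Ago1 had 96.1, 86.6 and 84.2 CPM in blue A, B and C, against 103.2 and 99.7 CPM in the controls, with no overlap (log2FC -0.19, SE 0.084, 95% interval -0.40 to 0.018, adjusted p = 0.347). Ago4 had 26.4, 35.4 and 33.1 CPM in blue A, B and C, against 27.1 and 32.2 CPM in the controls. Its groups overlapped fully, and its range over the blue libraries, 0.42 on the log2 scale, was the widest of the members (log2FC 0.092, SE 0.15, 95% interval -0.28 to 0.47, adjusted p = 0.829). Without control A the log2FC of Ago4 was -0.0025. Ago2, the slicer, had 175, 205 and 190 CPM in blue A, B and C, against 218 and 197 CPM in the controls. Blue B was above control B, and the log2FC was -0.13 (SE 0.094, 95% interval -0.36 to 0.11, adjusted p = 0.580). It was -0.026 without control A and -0.20 without control B.

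The make-up of the Argonaute pool was compared as shares within libraries, which no scaling changes. Ago3 took 20.1%, 20.2% and 20.1% of the units of the 4 genes in blue A, B and C, against 23.7% and 22.2% in control A and B. Ago4 took 7.09%, 8.62% and 8.60% in the blue libraries, against 5.94% and 7.62% in the controls. Ago2 took 47.0%, 50.1% and 49.4% in the blue libraries, against 47.8% and 46.6% in the controls, and Ago1 took 25.8%, 21.1% and 21.9%, against 22.6% and 23.6%. The groups were apart for Ago3 and overlapped for the other 3. How often such a share is apart for other genes was not computed, so this is no result about Ago3. These shares count units, which grow with transcript length, so they are compared between libraries and not between genes. The sum of the 4 genes does depend on scaling. With TMM it was 373, 410 and 385 CPM in blue A, B and C, against 457 and 423 CPM in the controls, with no overlap. With library totals, a scaling added for this sum after its values were seen, it was 379, 429 and 376 CPM in the blue libraries, against 472 and 393 CPM in the controls, and the groups overlapped. For the 11 within-library ratios of members computed, the smallest 2-sided exact permutation p that 3 libraries against 2 allow is 0.2 (0.275 after Benjamini-Hochberg adjustment), so no ratio could pass. The ratios of Ago1 to Ago2, Ago4 to Ago2 and Ago3 to Ago1 overlapped between the groups, and the others did not. How often ratios of other genes are apart was not computed, so these ratios are no result about the members.

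**Figure D2:**
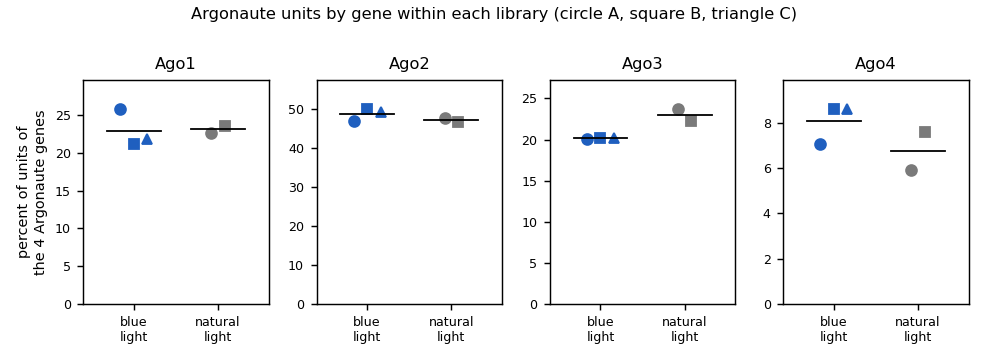
Percent of the units of the 4 Argonaute genes taken by each gene in each library, blue light left of natural light, on axes that start at 0 and differ between panels; lines mark group means. The Ago3 share lies between 20.1% and 20.2% in the blue libraries, below 22.2% and 23.7% in the controls, and the other 3 genes overlap. No background over other genes was computed for such shares.

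Ago3, Dgcr8 and Tarbp2 had the same order over the libraries, control A, control B, blue B, blue C and blue A, which is also the order of the summed rod markers, where the controls were almost level. For Dicer1 blue C and blue B changed places in that order. With TMM scaling these genes were lower without overlap, as were 20.1% of tested genes. The share of all tested genes with the same order was not computed, so the match is no result about these members. The part of the lower rod RNA in these levels was not tested. The 3 genes whose log2 CPM followed Ago3 most closely over the 5 libraries were sought among 12445 genes with a mean of at least 5 CPM. They were the G protein-coupled receptor kinase Grk4 (Pearson r = 0.9987), the splicing helicase Dhx15 (r = 0.9986) and the membrane protein Grina (r = 0.9985). Over these 5 points 639 genes, 5.13% of those compared, had an r of at least 0.95, and 59 genes (0.474%) an r of at least 0.99.

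The other genes of the pathway were 71 partners in 7 lists, of which 69 could be tested. In edgeR 1 passed, lower, and the median log2FC was -0.077. At an unadjusted p under 0.05 there were 14, of which 11 were lower (background 9.27%) and 3 higher (background 7.03%). This count was 7 with library totals and 3 without control A, and 8 to 15 without any other library. The share that passed was near the background of 1.55% of genes lower. The 1 gene was Tnrc6b, a GW182 scaffold that links Argonautes to the deadenylases. It stood at 506, 564 and 541 CPM in blue A, B and C, against 812 and 729 CPM in control A and B. All 3 blue libraries were well below both controls, and the log2FC of Tnrc6b was -0.52 (SE 0.085, 95% interval -0.73 to -0.31, adjusted p = 0.0463). It lies on chromosome 15 from 80711313 to 80941086. The adjusted p was 0.059 with DESeq2's size factors and 0.180 with library totals. It was 0.0368 with a mean of at least 5 CPM as the filter and 0.0418 in limma-voom. In DESeq2, which called 9.03% of all genes, it was 3.22e-05. With 1 blue library left out it ran from 0.101 without blue A to 0.180 without blue C. With the library letter as a replicate block it was 0.539. The log2FC of Tnrc6b was -0.42 without control A and -0.60 without control B, the ends of its range with any 1 library left out. Its paralogs Tnrc6a and Tnrc6c had log2FC of -0.086 and -0.13 and did not pass (adjusted p = 0.644 and 0.427).

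**Figure D3:**
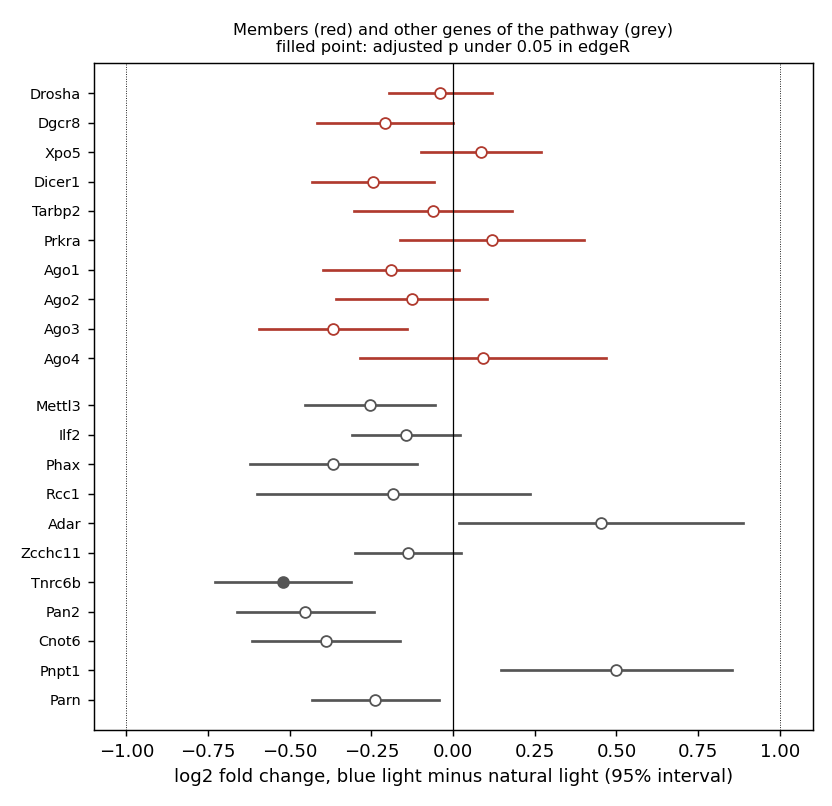
Log2 fold change, blue light minus natural light, with its 95% interval from the edgeR fit, for the 10 members (red) and 11 partners in the pathway (grey; the Piwi genes are not drawn); dotted lines mark a 2-fold change, and a filled point an adjusted p under 0.05. The intervals of all members lie inside the dotted lines, and the 1 filled point is Tnrc6b.

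Among 17 genes of deadenylation and decapping, the steps by which silenced messages are degraded, 0 passed in edgeR, 6 had an unadjusted p under 0.05, all lower (background 9.27%), DESeq2 called 4 (background 9.03%) and limma-voom 0. The list had 15 negative log2FC (background 51%) and a median of -0.11, against -0.0056 over all genes. The nuclease subunits Pan2 and Cnot6 had the smallest p. Pan2 had 57.0, 65.7 and 61.8 CPM in the blue libraries, against 82.9 and 85.4 CPM in the controls (log2FC -0.45, SE 0.085, adjusted p = 0.0655). Cnot6 had 170, 199 and 196 CPM in the blue libraries, against 254 and 240 CPM in the controls (log2FC -0.39, adjusted p = 0.117). In 15 effector genes of the silencing complex the median was 0.077, with Tnrc6b lower, 2 calls in DESeq2 and 1 in limma-voom.

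Of 13 Microprocessor cofactors 0 passed in edgeR, 1 had an unadjusted p under 0.05, and DESeq2 and limma-voom called 0. Their median was -0.089, with the RNA methyltransferase Mettl3 at a log2FC of -0.25 (adjusted p = 0.204) and the RNA-binding protein Ilf2 at -0.14 (adjusted p = 0.366). Of 5 export genes edgeR, DESeq2 and limma-voom each called 0, and 1 had an unadjusted edgeR p under 0.05. Phax, an export adaptor, had a log2FC of -0.37 (adjusted p = 0.167) and Rcc1, the exchange factor of Ran, -0.18 (adjusted p = 0.667). For 11 regulators of precursors the 3 tools each called 0 (edgeR, DESeq2 and limma-voom), and in edgeR 1 had an unadjusted p under 0.05. The editing enzyme Adar, an interferon-inducible gene, had 148, 97.9 and 132 CPM in blue A, B and C, against 93.9 and 90.5 CPM in the controls (log2FC 0.45, adjusted p = 0.290). The uridylyl transferase Tut4, listed as Zcchc11, had a log2FC of -0.14 (adjusted p = 0.379).

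The decay enzymes Pnpt1 and Parn had log2FC of 0.50 (adjusted p = 0.173) and -0.24 (adjusted p = 0.220). In their list of 4 genes 0 passed in edgeR, 1 in each direction had an unadjusted p under 0.05, DESeq2 called 1 and limma-voom 0. Of the 6 genes of the related Piwi pathway of the germ line 4 could be tested, of which 0 passed in edgeR, 0 had an unadjusted p under 0.05, and DESeq2 and limma-voom called 0. Ddx4 had 9 to 21 units in the blue libraries, against 47 and 20 in the controls (log2FC -1.34, adjusted p = 0.360), and Piwil2 had a log2FC of -0.37 (adjusted p = 0.659).

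The miRNA libraries gave a readout that the rule for the genes did not use, though the lists were made with earlier results of these data known. The 25 mature miRNAs listed bypass a member, are known to act on Dicer1, or come from the Dgcr8 hairpin, and 22 could be tested. In edgeR 0 of them passed, against a background of 0.624% of 641 tested miRNAs (0.312% in each direction). There were 2 higher and 1 lower at an unadjusted p under 0.05 (backgrounds 5.3% and 6.55%). DESeq2 called 0, where it called 1.72% of all miRNAs (1.25% lower), and limma-voom called 0. The 3 at an unadjusted p under 0.05 became 0 without control A, control B, blue B or blue C. With library totals in place of TMM the median log2FC of all miRNAs moved to 0.17, against 0.014 with TMM, so a miRNA's value under that scaling is read relative to this shift.

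Dicer1 is itself a known target of let-7 and of miR-103 and miR-107. The sequences are shown because they group these miRNAs by seed, bases 2 to 8, in capitals. RefSeq (GRCm38.p6) held 23 of the 25 listed miRNAs. The 9 listed miRNAs of the let-7 family, miR-98 included, share 1 seed, and miR-103-3p and miR-107-3p share another. The last 2 differ by the substitution G22C (miR-103-3p base first, counted from the 5′ end), so reads could be split between them. The last 3 lines are miRNAs, described further on, that bypass Dicer (miR-451a) or the Microprocessor.
mmu-miR-103-3p: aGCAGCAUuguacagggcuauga
mmu-miR-107-3p: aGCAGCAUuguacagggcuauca
mmu-let-7a-5p: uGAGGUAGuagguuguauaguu
mmu-let-7i-5p: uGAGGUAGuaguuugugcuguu
mmu-miR-451a: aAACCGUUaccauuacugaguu
mmu-miR-484: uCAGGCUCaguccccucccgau
mmu-miR-1981-5p: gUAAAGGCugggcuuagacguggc

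The miR-103-3p gene copies lie on chromosomes 2 and 11. Its level was 1479, 2033 and 1923 CPM in blue A, B and C, against 1305 and 1318 CPM in control A and B. All blue libraries were above both controls (background 14.8% of miRNAs higher without overlap), and the log2FC was 0.47 (SE 0.18, unadjusted p = 0.0278, adjusted p = 0.340). For miR-107-3p, on chromosome 19, the levels were 305, 374 and 339 CPM in the blue libraries, against 233 and 266 CPM in the controls (log2FC 0.44, SE 0.18, adjusted p = 0.380). Summed, the pair stood at 1784, 2407 and 2262 CPM in the blue libraries, against 1538 and 1584 CPM in the controls. The let-7 family summed to 136332, 140315 and 147723 CPM in blue A, B and C, against 136898 and 140685 CPM in the controls, and the groups overlapped. Of its 9 members let-7e-5p and let-7i-5p were higher in all blue libraries than in both controls. The 9 had log2FC from -0.067 to 0.21 with a median of 0.0010, and edgeR, DESeq2 and limma-voom called 0 of them, with 0 under an unadjusted edgeR p of 0.05.

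**Figure D4:**
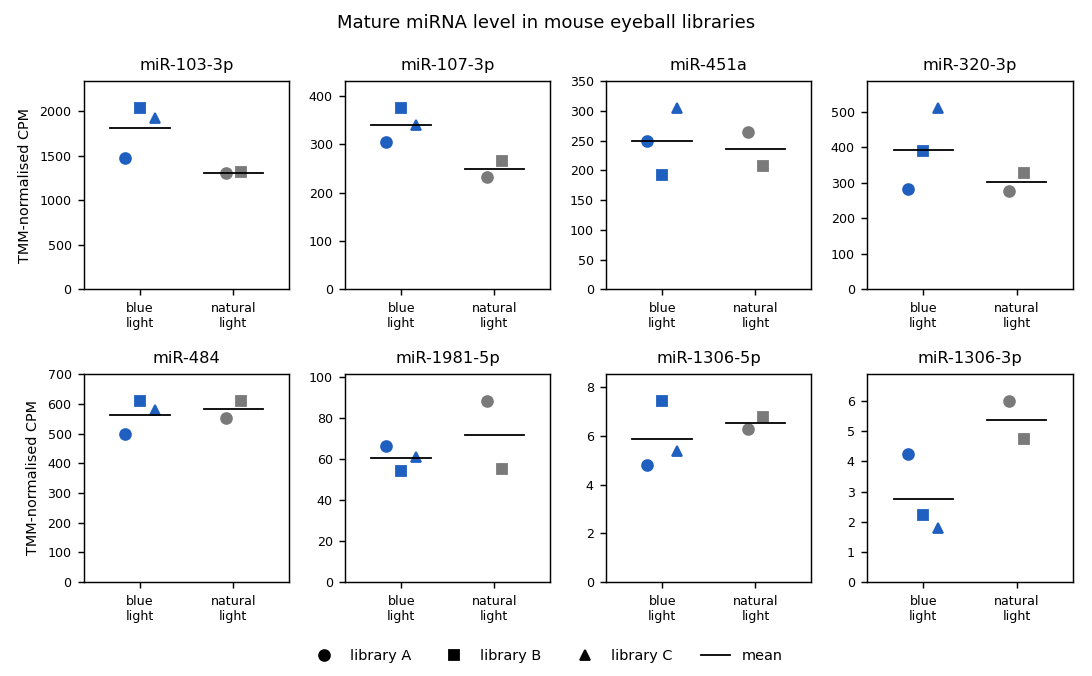
Level of 8 mature miRNAs in each library, in TMM-normalised CPM on axes that start at 0, blue light left of natural light; symbols mark the library letter and lines the group mean. The miR-103-3p libraries run from 1479 to 2033 CPM under blue light, above 1305 and 1318 CPM in natural light, and those of miR-451a overlap.

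miR-451a is the known miRNA that skips Dicer and is trimmed after slicing by Ago2. It had 250, 192 and 305 CPM in blue A, B and C, against 265 and 208 CPM in the controls, with full overlap (log2FC 0.073, SE 0.23, 95% interval -0.43 to 0.58, adjusted p = 0.904). It is abundant in red blood cells, and the 6 markers of these in the mRNA table summed to 43.0, 73.6 and 68.0 CPM in the blue libraries, against 46.9 and 80.5 CPM in the controls. Among these markers the beta-globin copies Hbb-bs and Hbb-bt resemble each other closely, as do the alpha-globin copies Hba-a1 and Hba-a2, and each of these genes was listed at 0 in at least 1 library. miR-320-3p and miR-484, known to bypass the Microprocessor but not Dicer, did not pass either. miR-320-3p had 282, 389 and 511 CPM in blue A, B and C, against 278 and 327 CPM in the controls (log2FC 0.38, SE 0.25, adjusted p = 0.612). Its log2FC was 0.15 without blue C, the highest library, and 0.57 without blue A. miR-484 had 500, 611 and 579 CPM in the blue libraries, against 553 and 610 CPM in the controls (log2FC -0.046, SE 0.17, adjusted p = 0.917).

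Mirtrons are miRNAs spliced out as short introns, without the Microprocessor. Of 8 mirtron arms listed 6 could be tested, 0 passed in edgeR, 0 had an unadjusted p under 0.05, and DESeq2 and limma-voom called 0. The most abundant, miR-1981-5p, had 66.4, 54.3 and 61.0 CPM in blue A, B and C, against 88.4 and 55.3 CPM in the controls (log2FC -0.25, adjusted p = 0.756). The 3p arm of miR-1982 had the smallest p of the 6, with 14, 12 and 15 counts in the blue libraries, against 21 and 18 in the controls (log2FC -0.84, adjusted p = 0.469). The 5p and 3p arms of miR-877 had log2FC of 0.32 and -0.33 (adjusted p = 0.756 and 0.730), miR-1224-5p 0.14 (adjusted p = 0.901) and miR-1981-3p -0.082 (adjusted p = 0.917).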

How the data were processed

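The members and lists were chosen with earlier results of these data known. Gene expression was deposited as estimated counts by gene symbol, without normalization by the authors as far as the values show. The miRNA data were deposited as whole counts for each mature miRNA. Per the submitters' processing notes, bcl2fastq 2.0, HISAT2, StringTie, DESeq2, limma and mm10 were named, without roles; the miRNA counter and the strand setting are not given in the sources used here. Of the low mRNA values 1051 equal 4 and 751 equal 3, so 1 unit may not be 1 fragment, and no counting intervals are given for mRNA.

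Columns were matched to samples by title. Each whole table was fitted with edgeR 4.0.16 in R 4.3.3 (TMM, filterByExpr, quasi-likelihood F-test, Benjamini-Hochberg adjustment over all features, threshold 0.05). The SE is the absolute log2FC divided by the root of F. Alternatives were DESeq2 1.42.0, limma-voom (limma 3.58.1), other scalings and filters, a replicate block, summed overlapping genes, and leaving out each library, where a lone control took its spread from the blue libraries. The fits were first tested on simulated counts with known changes. At an adjusted p under 0.05 the mRNA fit recovered 33.3% of 2-fold and 81.4% of 4-fold changes. For the miRNA fit these shares were 44% and 97.1%. A gene or miRNA that did not pass can therefore still have changed. The changed features were drawn at random from all tested ones, so these shares are not those of the members. Features simulated without a change made up 7.32% of the mRNA calls and 2.22% of the miRNA calls. Spans are those of RefSeq on GRCm38.p6, the assembly also called mm10. Named were all members, the partners that passed or else the 2 with the smallest p in each list, the tested miRNAs of the lists, overlapping genes and the 3 genes most like Ago3. Tnrc6a, Tnrc6c and Tardbp were named after their values were seen. Of the rod markers 1 gene of the rod list is not reported here and was left out of their sum.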

Additional observations from a re-analysis of the deposited data

How the results depend on the processing

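Ago3 was the 1 member DESeq2 called. Of the pathway partners 1 passed in edgeR, against 0 with DESeq2's size factors, 0 with library totals and 2 with a mean CPM of at least 5. DESeq2 called 7. With a blue library left out 0 to 1 passed, and the 1 without blue B was Tardbp. With all libraries Tardbp stood at 102, 209 and 105 CPM in blue A, B and C, against 221 and 195 CPM in control A and B. Its blue B lay between the controls, and it did not pass in edgeR (log2FC -0.59, adjusted p = 0.449). Of all genes 421 passed, against 274 with library totals, 1715 with DESeq2, and 0 (without control B) to 311 (without blue A) with a library left out; 8 passed without control A and 11 without blue C. Of all miRNAs 4 passed, against 32 with no low-count filter, 11 with DESeq2 and 0 to 6 with a library left out. Same-letter deviations from the group means correlated at -0.18 and -0.15 (mRNA) and at -0.038 and -0.11 (miRNA). The deviations of the 2 controls mirror each other, so these values cannot show whether the letters pair libraries. With the letter as a replicate block 0 members, 0 partners, 0 genes and 9 miRNAs passed, and 0 members had an unadjusted p under 0.05. Of 538 alternatives for single genes or miRNAs, 493 kept direction and call and 32 turned the sign of a log2FC, each of a value that had not passed.

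With library totals the log2FC was 0.0076 for Drosha, 0.073 for miR-1981-3p, 0.11 for miR-484, 0.0035 for miR-1306-5p, 0.12 for let-7a-5p, 0.10 for let-7f-5p, 0.14 for let-7g-5p and 0.089 for miR-98-5p. Without a low-count filter it was 0.013 for miR-484, 0.020 for let-7a-5p, 0.010 for let-7f-5p and 0.045 for let-7g-5p. It was 0.021 for miR-1981-3p with limma-voom. With the replicate block it was 0.024 for miR-1981-3p, -0.10 for miR-451a and -0.050 for let-7d-5p. With a library left out it ran from -0.0025 to 0.22 for Ago4, -0.76 to 0.19 for Piwil2, -0.13 to 0.27 for miR-1224-5p, -0.53 to 0.13 for miR-1981-5p, -0.52 to 0.55 for miR-1981-3p, -0.11 to 0.037 for miR-484, -0.097 to 0.26 for miR-451a, -0.072 to 0.0041 for let-7a-5p, -0.023 to 0.18 for let-7b-5p, -0.080 to 0.099 for let-7d-5p, -0.058 to 0.042 for let-7g-5p and -0.14 to 0.00086 for miR-98-5p. With library totals the median log2FC of all miRNAs was 0.17, against 0.014 with TMM. The cause of these sign changes was not tested. Counts of 12 to 80 for both arms of miR-1306 and miR-877 and for miR-1982-3p limit their precision.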
